A study of Drosophila melanogaster with 6 samples.

Results

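The sex determination cascade of Drosophila was examined in S2R+ cells upon depletion of Hakai. Its 6 genes were chosen by identifier, as Sxl (FBgn0264270), tra (FBgn0003741), tra2 (FBgn0003742), dsx (FBgn0000504), fru (FBgn0004652) and her (FBgn0001185), out of 17559 genes in the count tables. All of them were listed in every library, and 5 passed the filter on low counts and were tested among 7811 genes. The gene that did not pass was dsx. Poly(A) RNA was sequenced from 3 libraries of control KD, with dsRNA against LacZ of bacteria, and from 3 libraries of Hakai KD, with dsRNA against Hakai. The labels give 10 μg of dsRNA and 3 treatments over 6 days for both groups. The methods of the study give the amount per number of cells, so that these cannot be compared directly. S2R+ is a cell line of embryonic origin, and both groups are the same line in the same medium. The study describes the replicates of its knockdown comparisons as biological, while the labels only number them and do not say how the cultures were kept apart, and p-values measure the spread between these libraries.

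In flies, sex is set by a chain of splicing decisions. Sxl encodes an RNA-binding protein that is made in females, keeps its own transcript in the productive splice form and directs splicing of tra. The proteins Tra and Tra2 bind together to the transcripts of dsx and fru and select their female forms. Both of these genes encode transcription factors, dsx for most of the visible differences between the sexes and fru for male courtship. The m6A methyltransferase complex, to which Hakai belongs, takes part in the splicing of Sxl. In male cells, Sxl and tra are still transcribed, but their transcripts carry an early stop codon. Counts per gene add up all splice forms of a gene. They give the amount of reads on Sxl, tra, dsx and fru but not the share of male and female forms, which was not analysed here.

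The libraries held between 16041353 and 17288912 counts. Hakai itself was reduced to 23.7% of its control level, with 296, 329 and 298 normalized counts in control KD and 68.1, 72.6 and 77.8 in Hakai KD. Normalized counts are counts brought to a common library size with the TMM factors of edgeR, and values by library are given in the order of the replicate numbers throughout. Among markers of hemocytes, the cell type that S2 lines resemble, srp, Pxn and ush had mean levels of 4132, 2780 and 8281 normalized counts in control KD, and NimC1 was close to absent at 3.94. Of the 6 hemocyte markers tested, Pxn, Hml and Ppn rose upon Hakai KD, by log2 fold changes of 0.20, 0.56 and 0.58 (edgeR adjusted p = 0.00375, 0.0043 and 0.000154), where 7.58% of all tested genes were called higher. The other 3, srp, ush and eater, had values of -0.044, -0.016 and -0.078 and did not pass. The neuronal genes nSyb and Syt1 had means of 4.95 and 4.53 in control KD, the muscle genes Mhc and up 1.63 and 3.26, and the fat body genes Lsp2 and Fbp1 0.642 and 0.666, while Lsp1alpha had no read and apolpp, the fat body marker that could be tested, had 39.7. Some markers of other cell types were present, with means of 419 for elav, 1627 for Mef2 and 3698 for aub. Of the exon bases of elav, 27.9% are shared with lncRNA:enrr on the same strand, which is not among the counted genes. None of the tested neuronal, muscle, germline or fat body markers passed the threshold. Summed over the 7 measured hemocyte markers, control libraries held 15474 to 16375 and Hakai KD libraries 16461 to 16480 normalized counts. The groups did not overlap, which held for 34.9% of all tested genes taken singly, and none of the 7 was at 0. Most of the hemocyte sum came from ush, srp and Pxn, of which only Pxn rose. The sum over the 4 measured germline and gonad markers did not overlap either. It was 3803 to 4132 in control KD and lower, at 3742 to 3791, in Hakai KD. Most of the germline sum came from aub, with a log2 fold change of -0.10 (edgeR adjusted p = 0.053). In contrast, bam, bgcn and tj had log2 fold changes of 0.064, 0.32 and 0.16 and did not pass. The sums of the neuronal, muscle and fat body lists overlapped between the groups. The part of these markers in the results was not tested, and in bulk RNA fewer cells of a type cannot be told apart from less RNA per cell.

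The level of each gene in control KD was examined first, as CPM (counts scaled to a common library total) divided by the length of all annotated exons in kb. The genes of the splicing regulators Tra2 and Tra stood at the top, followed by her, fru and Sxl, and dsx was close to absent. The gene tra2, which encodes the RNA-binding partner of Tra and is expressed in both sexes, had 29.0, 30.5 and 28.9 CPM per kb in the control libraries. The gene tra, whose protein is rich in arginine and serine and is needed for the female mode of splicing, had 26.4, 24.4 and 22.4 CPM per kb. Counts of tra add up all its splice forms, so that this level does not show how much Tra protein was made. The libraries of tra2 all lay above those of tra, with a ratio of the means of 1.21.

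The gene her encodes a zinc finger protein that acts early on Sxl and later beside dsx in female differentiation. It had 13.2, 13.0 and 12.7 CPM per kb in control KD, and the mean of tra was 1.88 times higher. The gene fru had 6.27, 6.52 and 6.40 CPM per kb, below her in every library. Sxl followed with 0.948, 0.921 and 1.15 CPM per kb, and the mean of fru was 6.35 times higher. Each neighbouring pair in this order was separated in all control libraries. Against the 7644 tested genes with a known length, tra2 lay above 61.7%, tra above 55.4%, her above 36.8%, fru above 23.0% and Sxl above 8.57%.

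**Figure D1:**
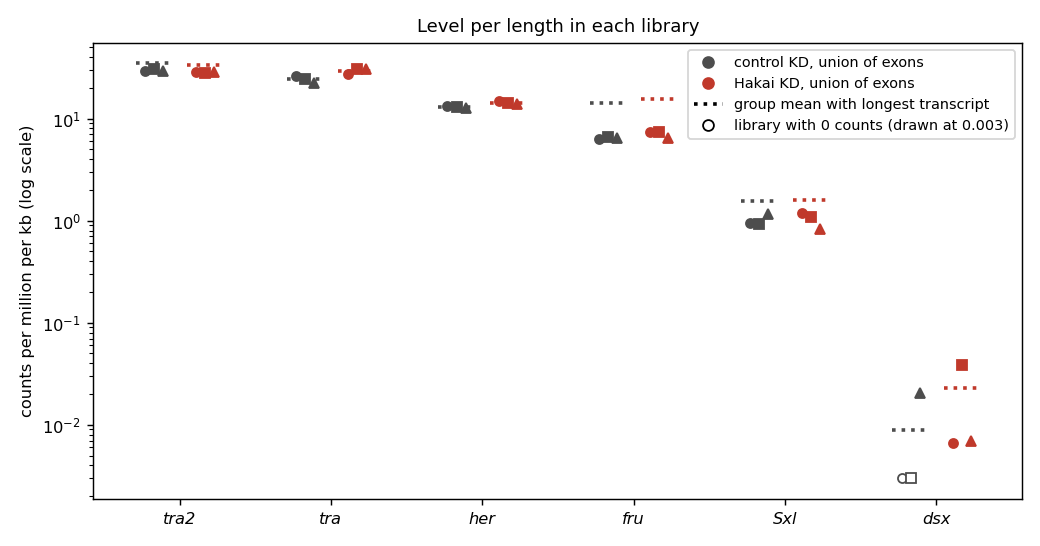
Level per length of the 6 genes in each library, on a log scale in CPM per kb, with control KD in grey and Hakai KD in red, and dotted bars for the group mean when the longest transcript is taken as the length. From tra2 at 29.5 CPM per kb in control KD to Sxl at 1.01, the points of each gene lie close together, fru moves up to 14.0 with the shorter length, and dsx sits lowest, with open symbols at 0.003 for its 2 libraries without a read.

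The annotated length matters for this order, since a gene with many alternative starts and exons has a long union of exons. The annotation holds 15 transcripts of fru over 18433 bp of exons, with a longest transcript of 8399 bp, and 25 transcripts of Sxl over 9192 bp, with a longest of 5964 bp. With the longest transcript as the length, fru had 14.0 ± 0.268 CPM per kb in control KD (SD, n = 3) and lay above her, at 13.0 ± 0.285 (SD, n = 3). The order of these 2 genes thus depended on the length used. The other neighbours kept their order in control KD with either length. In Hakai KD with the union of exons, tra and tra2 were no longer separated, at 29.4 ± 1.63 and 28.3 ± 0.455 CPM per kb (SD, n = 3). With the longest transcript as the length, tra2 still lay above tra in all Hakai KD libraries, with means of 33.3 and 29.4 CPM per kb.

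All members lie on 5 chromosome arms of BDGP6. Sxl spans 7074550 to 7098053 on the minus strand of X, tra 16590059 to 16591050 on the minus strand of 3L, and tra2 14602004 to 14604337 on the minus strand of 2R. On 3R, dsx spans 7924323 to 7967408 and fru 18414273 to 18545586, both on the minus strand, and her spans 16677185 to 16679691 on the plus strand of 2L. Exons of other counted genes overlapped 8.58% of the exon bases of tra, 1.84% of dsx, 1.27% of Sxl, 1.18% of her and 0.38% of tra2, and none of fru. The library kit marks strand, but the strand setting of the counting is not given in the sources used here, so that reads in these overlaps cannot be assigned with certainty.

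Hakai KD was then compared with control KD for the 5 genes that could be tested. The quasi-likelihood test of edgeR was used, and a gene was called at a Benjamini-Hochberg adjusted p under 0.05. Of the 5 genes, tra was called higher and none was called lower. Among all 7811 tested genes, 15.3% were called, 7.58% as higher and 7.72% as lower, so that 1 call among 5 genes is close to the share of all genes. The median log2 fold change of the 5 genes was 0.14, and that of all tested genes was 0.00058. The groups did not overlap in tra, tra2 and her, 3 of the 5 genes, against 34.9% of all tested genes. DESeq2 called 10.2% of the genes it tested and none of the 5 members.

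The change of tra was examined in each library. The control libraries held 379, 352 and 322 normalized counts of tra, and the Hakai KD libraries 395, 437 and 435. Every Hakai KD library lay above every control library, although Hakai KD replicate 1 and control KD replicate 1 lay close together. The mean rose from 351 ± 28.6 to 422 ± 23.4 (SD, n = 3), with a log2 fold change of 0.27 (SE 0.071, edgeR adjusted p = 0.026). This is a rise of 20.2%, with a 95% interval from 8.00% to 33.9%. In the exact two-sided permutation test p was 0.1, which 3 libraries a group cannot go below.

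The call of tra was a narrow one. In DESeq2 its log2 fold change was the same, 0.27, with an adjusted p of 0.071. Leaving out 1 library in turn gave log2 fold changes between 0.21 and 0.32. The call was lost when replicate 2 or 3 of control KD was left out (edgeR adjusted p = 0.080 and 0.081), and likewise for replicate 2 or 3 of Hakai KD (0.098 and 0.064). The exons of tra overlap those of l(3)73Ah on the other strand by 74 bp. This neighbour had 426 ± 3.85 normalized counts in control KD and 417 ± 8.05 in Hakai KD (SD, n = 3), with a log2 fold change of -0.028 (edgeR adjusted p = 0.78), and its groups overlapped.

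The gene of the partner of Tra was not called. The gene tra2 had 891, 937 and 890 normalized counts in control KD and 877, 854 and 879 in Hakai KD. All Hakai KD libraries lay below the control libraries, by a small margin. The log2 fold change was -0.059 (SE 0.040, edgeR adjusted p = 0.35), which did not pass the threshold. The 95% interval ran from -9.70% to 2.00%, and the p-value alone does not show that tra2 was unchanged.

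The ratio of tra to tra2 within a library does not depend on how libraries are scaled, and was computed after the values had been seen. Per length, it was 0.910, 0.802 and 0.774 in the control libraries and 0.964, 1.09 and 1.06 in the Hakai KD libraries. All Hakai KD libraries lay higher, with means of 0.829 ± 0.072 and 1.04 ± 0.067 (SD, n = 3, two-sided exact permutation p = 0.1, the smallest possible). This outcome was fixed in advance, since every Hakai KD library lay above all control libraries in tra and below them in tra2. The ratio is therefore not separate evidence for a change of tra. The ratios of her and of fru to tra2 were separated in the same way, from 0.440 ± 0.015 to 0.506 ± 0.018 for her and from 0.217 ± 0.0037 to 0.251 ± 0.022 for fru (SD, n = 3, exact permutation p = 0.1 each), so that the separation was not particular to tra. For her it was likewise fixed by the separate groups of her and tra2, while the groups of fru overlapped. The ratio of tra to her, in contrast, overlapped between the groups, with means of 1.88 ± 0.113 and 2.06 ± 0.166 (SD, n = 3, exact permutation p = 0.3). A rise of tra beyond that of her was therefore not separated from the spread of the libraries.

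**Figure D2:**
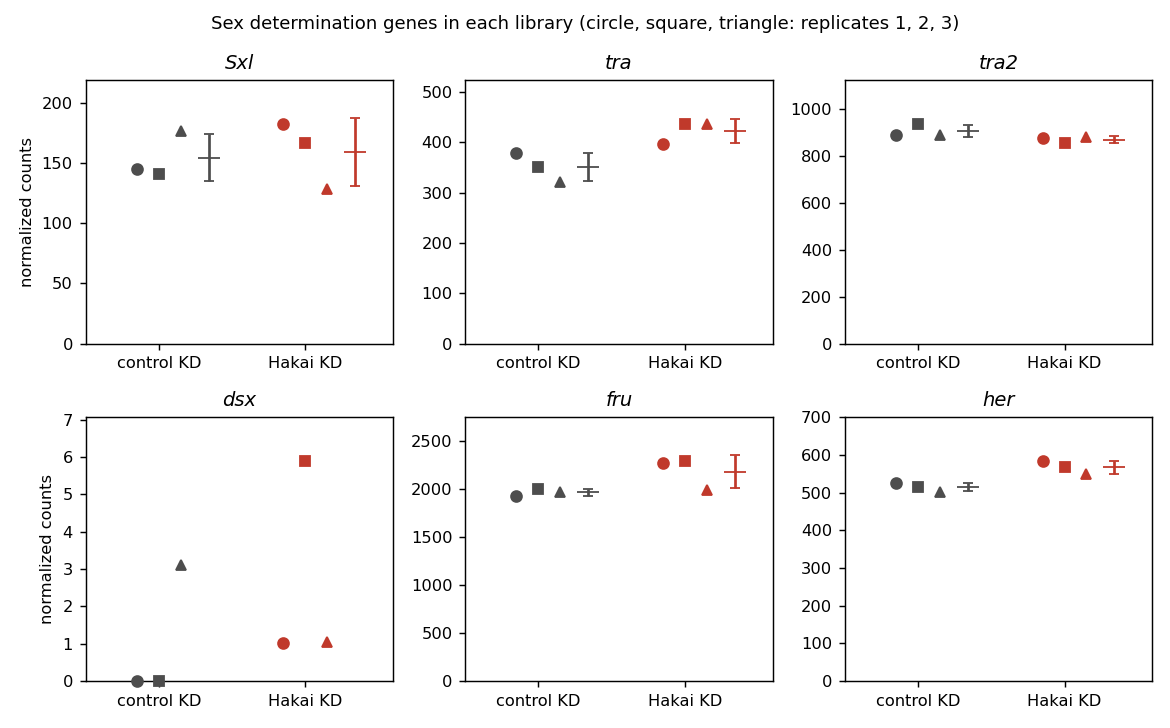
Normalized counts of the 6 genes in each library of control KD (grey) and Hakai KD (red), with a bar at the mean and whiskers of 1 SD (n = 3), left out for dsx, whose values are too low. All Hakai KD libraries of tra and her lie above all control libraries, those of fru do so in replicates 1 and 2 at 2268 and 2293 while replicate 3 at 1986 lies within the control range, and those of Sxl are mixed.

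Sxl, the switch at the head of the cascade, was measured with few reads. The control libraries held 145, 141 and 177 normalized counts of Sxl, and the Hakai KD libraries 183, 167 and 128. Both the highest and the lowest library belonged to Hakai KD, and the control libraries lay between them. The means were 155 ± 19.6 and 159 ± 28.1 (SD, n = 3), with a log2 fold change of 0.052 (SE 0.13, edgeR adjusted p = 0.84). The 95% interval of the change ran from -15.4% to 27.1%. A change of the total amount of Sxl within that interval was not detectable with these libraries.

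The spread of Sxl exceeded the counting error, and so did that of tra in control KD, at 8.15% against 5.29%. The coefficient of variation of Sxl was 12.7% in control KD and 17.6% in Hakai KD, where counting alone would give 8.00% and 7.97%. The spread of tra2 stayed within counting error, with 2.98% and 1.61% against 3.30% and 3.42%, and so did that of her. For fru, the 3 control libraries varied by 1.91%, but the Hakai KD libraries varied by 7.81% against a counting error of 2.16%. Hakai KD replicate 3 was the lowest library of its group for Sxl, fru and her, and the sign of the change of Sxl depended on single libraries, with log2 fold changes from -0.057 to 0.18 when 1 library was left out.

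The relatives of Sxl were examined because reads of similar genes can be exchanged. The gene ssx, a sister of Sxl on the same chromosome, was far more abundant, with 4873 normalized counts in control KD, and its log2 fold change was -0.0070 (edgeR adjusted p = 0.91). Its level of 79.5 CPM per kb compares with 1.01 for Sxl. The neuronal relatives elav and Rbp9 had 419 and 53.4 normalized counts in control KD and log2 fold changes of -0.052 and -9.3e-05, and neither passed the threshold. Reads of elav may include reads of lncRNA:enrr, with which it shares exon bases. Of fne, 1 read was counted in all libraries. How the counting treated reads that map to several places is not given in the sources used here.

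The gene dsx, the last splicing target of the cascade, could not be tested. Libraries of control KD held 0, 0 and 3 reads of dsx and those of Hakai KD 1, 6 and 1, which is 11 reads in all. Most of them came from control KD replicate 3 and Hakai KD replicate 2. The sums of 3 and 8 reads give a ratio, scaled by library size, of 2.75, with an exact 95% interval from 0.660 to 16.1 that covers counting error only, so that no difference was detectable at this depth. In the edgeR fit without the filter, which called 10.1% of 12758 genes, the adjusted p of dsx was 0.54. Its exons overlap 169 bp of lds on the other strand, which had 2998 normalized counts in control KD, so that even these few reads cannot be assigned to dsx with certainty.

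The gene fru, the other target of Tra and Tra2, had the most reads of all members. Its transcripts from the distal promoter are spliced by sex in neurons, while those from other promoters serve both sexes, and gene counts do not part them. Normalized counts of fru were 1929, 2005 and 1969 in control KD and 2268, 2293 and 1986 in Hakai KD. Replicates 1 and 2 of Hakai KD lay above all control libraries, and replicate 3 lay among them. The log2 fold change was 0.15 (SE 0.051, edgeR adjusted p = 0.069), a difference of 11.0% that did not pass the threshold. Without Hakai KD replicate 3 it was 0.21 (edgeR adjusted p = 0.0030), so that this library decided the call. Without the filter on low counts, the adjusted p was 0.037 at a log2 fold change of 0.14.

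The gene her had 524, 516 and 502 normalized counts in control KD and 584, 568 and 550 in Hakai KD. The groups did not overlap, and the means were 514 ± 11.3 and 567 ± 16.9 (SD, n = 3). The log2 fold change was 0.14 (SE 0.048, edgeR adjusted p = 0.069), which missed the threshold by little. The difference was 10.3%, with a 95% interval from 2.55% to 18.7%. In DESeq2 the adjusted p was 0.35, and no fit with 1 library left out called her.

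**Figure D3:**
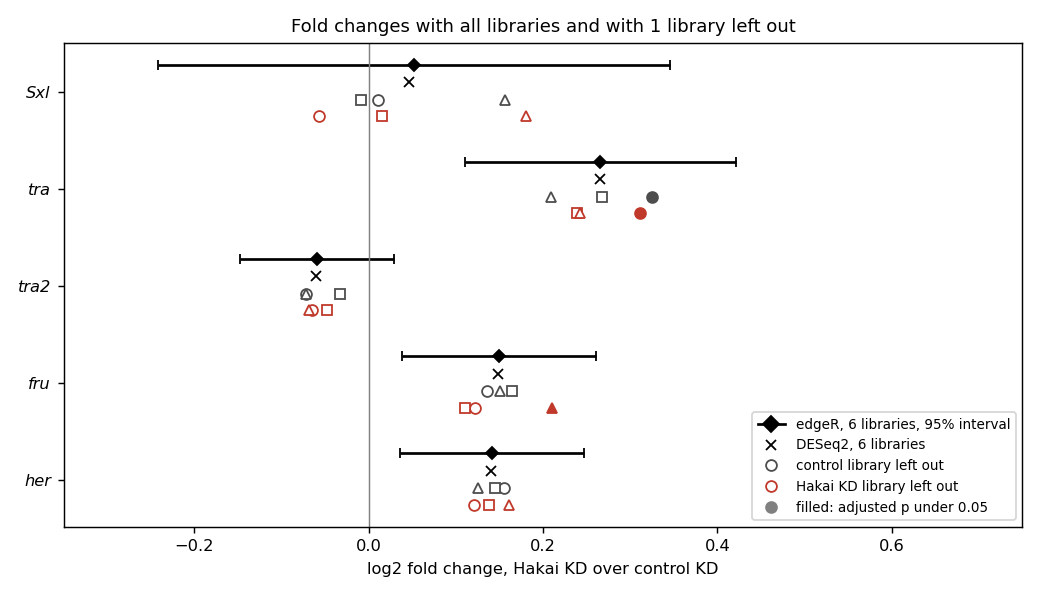
Log2 fold changes of the 5 tested genes, Hakai KD over control KD, with all 6 libraries in edgeR (diamonds with 95% intervals) and DESeq2 (crosses), and with 1 control (grey) or Hakai KD (red) library left out, with circle, square and triangle for replicates 1, 2 and 3 and filled symbols for an adjusted p under 0.05. The values of tra stay between 0.21 and 0.32, those of Sxl fall on both sides of 0 and fru is called in 1 of its 6 fits, without Hakai KD replicate 3.

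The genes around the cascade were then counted by role. Among all tested genes, 7.58% were called higher and 7.72% lower. The lists are small, and whether any of them differed from these shares was not tested. Of the 10 genes that set early transcription of Sxl, da was not analysed here, and the signal genes sisA, sc, upd1, run and dpn were too low to be tested. The remaining 4 were abundant, and 2 of them rose. The corepressor gro rose from 4016 ± 123 to 4536 ± 46.3 normalized counts (SD, n = 3), with a log2 fold change of 0.18 (edgeR adjusted p = 0.0039). The transcription factor gene Stat92E rose by 0.12 on the log2 scale (adjusted p = 0.024), but this call was lost in 5 of the 6 fits with 1 library left out. The values of emc and hop, 0.0061 and -0.017, did not pass.

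The 14 genes that act with Sxl in splicing were all tested, and include subunits of the spliceosome and the m6A writers. Apart from the targeted Hakai, fl(2)d rose by a log2 fold change of 0.40, while Spf45, a splicing factor that binds Sxl, fell by 0.11 and vir, a writer subunit, fell by 0.14 (edgeR adjusted p = 2.3e-05, 0.024 and 0.027). The calls of Spf45 and vir were each lost in 5 of the 6 fits with 1 library left out, and neither was made by DESeq2 (adjusted p = 0.089 and 0.10). The other 10 genes did not pass the threshold, with values from -0.13 for snf, a subunit of U1 and U2 particles, to 0.18 for Flacc. The median over the list was 0.028.

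Among mRNAs that Sxl is known to bind, nos was not analysed here and 3 were tested. The receptor gene N fell from 3107 ± 119 to 2764 ± 114 normalized counts (SD, n = 3), with a log2 fold change of -0.17 (edgeR adjusted p = 0.014), and lost this call without control KD replicate 2 or without Hakai KD replicate 1. The transcript of msl-2, whose translation Sxl represses in females, had log2 fold change 0.012, and e(r) had 0.055. Of the 7 dosage compensation genes, lncRNA:roX2 fell from 1077 ± 53.0 to 808 ± 30.1 normalized counts (SD, n = 3), with a log2 fold change of -0.42 (edgeR adjusted p = 0.000197). The protein genes msl-1, msl-2, msl-3, mof and mle did not pass, and 3 reads of lncRNA:roX1 were counted in all libraries.

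Partners of Tra and Tra2 include SR proteins, which bind exonic enhancers, and the kinase Doa that phosphorylates them. The list counted here also holds Rsf1, whose role beside Tra and Tra2 was not tested. SF2 was not analysed here, and 5 of the 6 genes reported were tested. Of these, 2 were called higher and none lower, beside 7.58% and 7.72% of all tested genes. B52 rose from 6735 ± 182 to 7775 ± 264 normalized counts (SD, n = 3), with a log2 fold change of 0.21 (edgeR adjusted p = 0.0028), and Rsf1 rose by 0.20 (adjusted p = 0.019). The call of Rsf1 was lost in 3 of the 6 fits with 1 library left out, and that of B52 in none. In DESeq2, B52 passed and Rsf1 did not (adjusted p = 0.055). The other 3, x16, SC35 and Doa, had values from 0.039 to 0.093 and did not pass. The median of the 5 genes was 0.093, beside 0.00058 for all tested genes and 0.27 for tra itself.

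**Figure D4:**
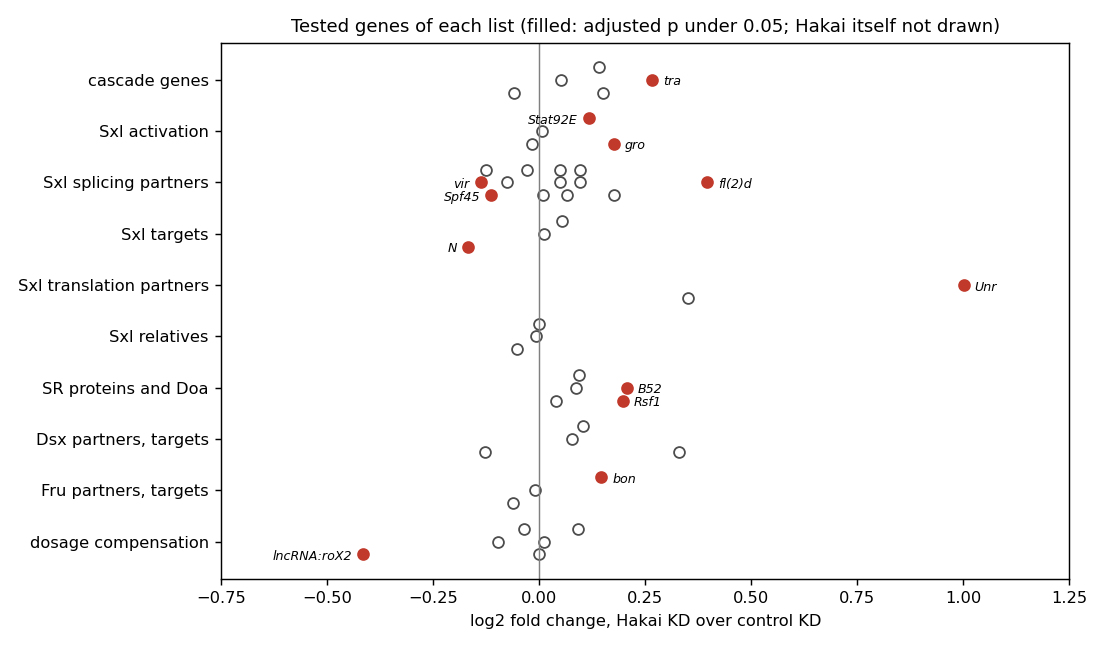
Log2 fold changes, Hakai KD over control KD, of the tested genes of each list, with filled red points for an adjusted p under 0.05 and Hakai itself not drawn. In the row named SR proteins and Doa, which also holds Rsf1, all 5 points lie above 0 and 2 are filled. Unr lies farthest out at 1.00 and lncRNA:roX2 lies lowest at -0.42.

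Downstream of dsx and fru, most sex-specific targets were at the limit of detection. The yolk protein genes Yp1, Yp2 and Yp3, which Dsx regulates in the fat body, had 12, 19 and 40 reads in all 6 libraries together, and Fad2 and to had none. Lgr3, retn and dsf had 2, 5 and 7 reads. The 4 tested genes on the Dsx list, ix, bab1, bab2 and chinmo, did not pass the threshold, with log2 fold changes from -0.13 to 0.33. Of the partners of Fru, bon rose by 0.15 on the log2 scale (edgeR adjusted p = 0.014), with 22.2% of its exon bases shared with CG15923 on the other strand, and the deacetylase gene HDAC1 and the gene of heterochromatin protein HP1a had -0.061 and -0.0091. This call was lost without control KD replicate 2 or without Hakai KD replicate 1, and lola was not analysed here.

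Genes whose levels followed those of the members over the 6 libraries were also listed, as a description. The values share library and depth, and with 6 points high correlations are frequent. The levels of her were closest to EcR, the ecdysone receptor gene (Pearson r = 0.995 of log2 normalized counts, 6 libraries), and CG9175 (0.994), and 104 tested genes had r above 0.95 with her. Those of fru were closest to the kinase gene Pkc98E and to fmt (0.998 each), with 62 genes above 0.95. In Pkc98E, as in fru, Hakai KD replicate 3 at 970 normalized counts lay within the control range of 896 to 1017, and replicates 1 and 2 lay above it at 1409 and 1485. The levels of tra were closest to Gen and Lint-O (0.990 and 0.989), those of tra2 to Ccdc58 and CG4594 (0.976 and 0.970), and those of Sxl to Cyp12a5 and orb2 (0.992 and 0.990).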

How the data were processed

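Gene expression was measured by RNA-seq of poly(A) RNA in 3 control KD and 3 Hakai KD libraries of S2R+ cells. The authors mapped the reads with STAR (2.5.1b in their processing notes) to BDGP6, counted reads per gene with featureCounts (1.5.1) and deposited raw counts, neither normalized nor pooled. Of 17559 identifiers, 17253 have a symbol and a position in the Ensembl annotation BDGP6.54, from which exon lengths and overlaps were taken. The study names a different Ensembl release for its mapping, so that the exons counted and the exons measured may differ. The effect of this on levels per length was not tested. For the analysis, edgeR 4.0.16 was used (R 4.3.3). Low genes were removed by filterByExpr (minimum count 10, minimum total 15), scaled by TMM factors and compared with the quasi-likelihood test without covariates, with Benjamini-Hochberg adjustment over 7811 genes and a threshold of 0.05. Standard errors were derived from the F statistic and are approximate. The script was tested on simulated data.

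Libraries held 16041353 to 17288912 counts, and intervals on counts cover counting error only. Pairs of libraries of a group differed by more than sampling noise, with a chi-square per degree of freedom of 2.25 to 14.7, the largest values with control KD replicate 1. Alternatives were DESeq2 1.42.0, limma-voom (limma 3.58.1), other scalings and filters, the replicate number as a block and leaving out each library. The text names the 6 members, the genes of fixed role lists that passed the threshold and, for members whose mean reached 50 normalized counts, the 2 tested genes with the highest Pearson r over log2 normalized counts with a pseudocount of 1. Members and lists were chosen with earlier results of these data known. Listed genes without a matching identifier (da, nos, SF2, lola, Nplp2, wupA and vas) were not analysed here, and neither were splice forms. Some further genes of the lists are not reported here and were left out of the counts of their list.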

Additional observations from a re-analysis of the deposited data

How the results depend on the processing

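The number of genes called, 1195 with all libraries, lay between 810 (DESeq2) and 1296 (library size alone) over alternatives with all 6 libraries, and between 708 and 1014 with 1 library left out, lowest when replicate 2 of control KD (708) or of Hakai KD (740) was left out. Scaling by library size alone gave 374 higher and 922 lower calls, against 592 and 603, and the median log2 fold change of all genes moved by -0.035. Same-numbered replicates did not deviate together (correlations of -0.070, -0.033 and -0.074). These values cannot show whether their cultures were handled together, which the labels do not give. With the replicate block 1152 genes were called and tra kept its call (log2 fold change 0.27, adjusted p = 0.045 from edgeR).

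The log2 fold change of tra was 0.27 in DESeq2, where its call was lost, and 0.21 to 0.32 with 1 library left out. For fru it was 0.14 without the filter, where it was called, and 0.11 to 0.21 with 1 library left out. For Sxl it was -0.057 to 0.18 with 1 library left out, below 0 without control KD replicate 2 or Hakai KD replicate 1. The cause of these moves was not tested. The values of tra2 and her kept their sign and side of the threshold in all 13 alternatives. Those of dsx, fitted without the filter, ran from 0.055 to 4.51 and are not interpretable at 11 reads, and limma-voom and the stricter filter gave no value for it. With the longest transcript as the length, control levels were 34.6 for tra2, 14.0 for fru and 1.55 CPM per kb for Sxl.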

Other observations

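Partners of Sxl in the repression of msl-2 translation were also examined. The gene Unr, which encodes an RNA-binding protein that acts with Sxl on the msl-2 transcript, was measured at 217, 361 and 344 normalized counts in the control libraries, and at 719, 770 and 343 in the Hakai KD libraries. Hakai KD replicate 3 lay among the control libraries, and replicates 1 and 2 lay well above them. The log2 fold change was 1.00 (SE 0.26, edgeR adjusted p = 0.024). The call was lost in 4 of the 6 fits with 1 library left out, over which the value ran from 0.79 to 1.28, and in DESeq2 (adjusted p = 0.12). The gene pAbp, the poly(A)-binding partner of Unr, had 15017, 21880 and 22375 normalized counts in control KD and 29600, 30963 and 14986 in Hakai KD, and did not pass the threshold. In both genes the libraries control KD replicate 1 and Hakai KD replicate 3 were the lowest of their groups. The gene chinmo, which keeps the male identity of somatic cells in the testis, had the same order, with 1446, 1746 and 1687 normalized counts in control KD and 2370, 2498 and 1253 in Hakai KD. The gene fru shared it as well, with control KD replicate 1 and Hakai KD replicate 3 lowest.

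The proneural gene sc, an X-linked signal gene of Sxl, had no read in the control libraries and 3, 2 and 3 reads in Hakai KD. The sum of 8 reads has an exact 95% Poisson interval from 3.45 to 15.8, which covers counting error only. No such interval was computed for the control libraries, and the gene was too low to be tested.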
